A study of Mus musculus with 6 samples.

Results

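The neurotrophins Bdnf, Ntf3 and Ntf5, the related survival factor Gdnf, and the neurotrophin receptors Ntrk2, Ntrk3 and Ngfr were followed in the RNA of small extracellular vesicles, membrane-bound particles that cells release. These 7 genes were found by symbol among the 53379 genes of the deposited tables. The vesicles came from primary cultures of wild-type mouse embryonic cortical neurons. Of the 6 libraries, 3 were labelled control (called normoxic in the series text) and 3 were labelled OGD/R, an abbreviation the labels do not spell out and which was read as the hypoxic group because it is the only other treatment label. Both groups share genotype and cell type, and no batch, age in days or vesicle isolation is given. Whether the replicates came from different cultures is not stated, and the p-values then reflect library-to-library spread alone, possibly technical.

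Neurotrophins are secreted proteins that keep neurons alive and shape their axons, dendrites and synapses. They are made as longer precursors that proteases cut. The mature forms act through Trk receptor tyrosine kinases, which signal through Ras-MAPK, PI3K and phospholipase C gamma, while the p75 receptor, encoded by Ngfr, binds all neurotrophins and with higher preference their precursors. Gdnf belongs to another family and signals through Ret with a GFRA co-receptor. In the cortex, Bdnf is made by excitatory neurons in an activity-dependent way, and Ntrk2 is found in neurons and, in a shortened form, in astrocytes.

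All 7 RNAs had reads in all 6 libraries, though Ntf3 only 1 read in control 1. So did 34 of 42 marker genes of liver, muscle, pancreas, skin, gut and testis, so detection does not set the members apart. Between OGD/R and control vesicles none of the 7 passed the adjusted threshold of 0.05 in limma. Ntrk2 and Ntrk3 had the highest mean levels as deposited, though Gdnf was above Ntrk3 in OGD/R 1 and the order depended on the gene length used. Both were lower in all OGD/R libraries than in all control libraries, by log2 fold changes of -0.64 and -0.51. Such separation towards lower values, in 2 of 7 members, was found in 10.8% of all tested genes and in 12.9% of tested protein-coding genes. Lower values were common: the median log2 fold change of the 20356 tested protein-coding genes was -0.42. Of the members 0 of 7 passed in limma (Benjamini-Hochberg adjusted p from 0.748 to 0.978), and 0 of 7 had an unadjusted p under 0.05. Over all 44125 tested genes 0.0159% passed the adjusted threshold of 0.05 (0.0136% lower, 0.00227% higher) and 6.76% had an unadjusted p under 0.05. On recovered reads with limma-voom 0 of 7 members passed, as did 0.135% of 42343 genes.

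FPKM are fragments scaled to gene length and to the total of the library, so a few abundant entries lower the values of all other genes. From the steps between values, the libraries held 1092724 to 2141610 fragments on genes. Gm23935, annotated as a short miRNA gene, took 4.31%, 0.554% and 0.297% of these fragments in control 1, 2 and 3, and 49.5%, 1.95% and 24.4% in OGD/R 1, 2 and 3. The median protein-coding gene had 6.72, 7.24 and 8.21 FPKM in the control libraries and 3.53, 8.22 and 5.05 FPKM in the OGD/R libraries. Values are therefore also given after subtracting each library's median log2 value over tested protein-coding genes (centred values), and as reads per 1000000 reads on protein-coding genes.

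Start-site windows of 5 of the 7 members (RefSeq, GRCm38.p6, 250 bases before to 50 after a start) were searched for ACGTG and GCGTG, the core letters of sites bound by the hypoxia-inducible factor, on both strands. Ntf5 and Ntrk3 had no window in the table used. Of 13 windows 7 held at least 1 of these 5-base words, against 43.8% of 32851 windows of all genes. Bdnf, which uses many alternative first exons, held them in 3 of 7 windows. The window of Ntrk2, the member with the smallest p, and the third of Bdnf are shown with the matches in capitals, as examples of how such words lie in these genes.
Ntrk2, chr13:58806319-58806618, plus strand: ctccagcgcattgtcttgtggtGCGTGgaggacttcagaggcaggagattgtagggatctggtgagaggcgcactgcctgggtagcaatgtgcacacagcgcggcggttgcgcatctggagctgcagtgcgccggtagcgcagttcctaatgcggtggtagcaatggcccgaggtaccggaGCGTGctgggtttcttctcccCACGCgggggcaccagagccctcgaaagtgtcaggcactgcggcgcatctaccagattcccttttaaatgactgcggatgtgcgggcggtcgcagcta
Bdnf, chr2:109692186-109692485, plus strand: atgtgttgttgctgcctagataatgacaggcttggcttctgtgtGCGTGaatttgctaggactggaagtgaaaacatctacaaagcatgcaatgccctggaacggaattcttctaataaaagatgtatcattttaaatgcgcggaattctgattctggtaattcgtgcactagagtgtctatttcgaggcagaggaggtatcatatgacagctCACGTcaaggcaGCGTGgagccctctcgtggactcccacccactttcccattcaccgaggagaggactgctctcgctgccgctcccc
Ntrk2 held GCGTG 3 times, with first bases at -228, -69 and -48 from the start, and ACGTG 0 times. The Bdnf window held ACGTG at -37 and GCGTG at -206 and -25. TGACG, part of the site of the activity-regulated factor CREB, overlapped the former at -35, and 20.8% of all windows hold it. The full CREB site TGACGTCA was in 0 of the 13 windows and in 1.79% of all windows. A match is a description of the letters and not evidence of binding.

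Ntrk2 encodes TrkB, the receptor of BDNF and NT-4/5 (ENSMUSG00000055254, chromosome 13, 58806569 to 59133970, plus strand, GRCm38). It had 16.9, 21.04 and 16.5 FPKM in control 1, 2 and 3, and 10.8, 11.9 and 10.9 FPKM in OGD/R 1, 2 and 3. All OGD/R libraries lay below all control libraries, with means of 18.1 ± 2.52 and 11.2 ± 0.591 FPKM (SD, n = 3 each). The log2 fold change was -0.64 ± 0.37 (SE, on the log2(FPKM + 1) scale), with an adjusted p of 0.748 in limma. These values rested on 161, 260 and 216 reads in control and 202, 150 and 126 reads in OGD/R vesicles. Per 1000000 protein-coding reads the groups overlapped, at 217, 256 and 201 in control and 269, 148 and 187 in OGD/R vesicles. Centred, the log2 fold change was -0.24 ± 0.35 (SE), and the centred groups overlapped.

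Ntrk3 encodes TrkC, the receptor of NT-3 (ENSMUSG00000059146, chromosome 7, 78175959 to 78738012, minus strand). It had 13.2, 14.3 and 13.0 FPKM in control and 6.68, 12.4 and 9.34 FPKM in OGD/R vesicles. The OGD/R values again lay below the control values, by a narrow gap for OGD/R 2, and the means were 13.5 ± 0.698 and 9.47 ± 2.86 FPKM (SD, n = 3 each). The log2 fold change was -0.51 ± 0.41 (SE; limma, adjusted p = 0.798). With 1943 reads over the 6 libraries Ntrk3 was the most deeply covered member. Per 1000000 protein-coding reads it was the steadiest of the 7, at 384, 392 and 356 in control and 376, 348 and 359.7 in OGD/R vesicles. Relative counting error is smaller with more reads, and steadiness at equal depth was not tested. The centred log2 fold change was -0.10 ± 0.30 (SE).

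Groups lay apart towards higher values in 0 of 7 members, in 1.1% of all tested genes and in 0.806% of tested protein-coding genes. After centring, the groups of 0 of 7 members lay apart, against 6.09% of all tested genes towards lower and 5.41% towards higher values.

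**Figure D1:**
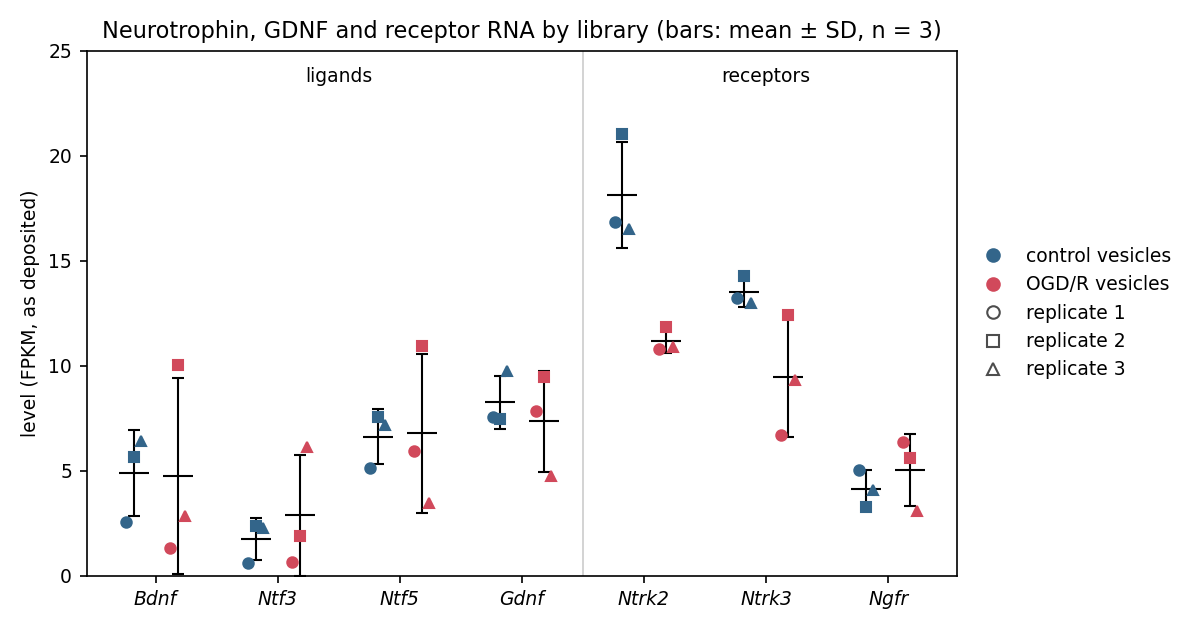
Level of each member in FPKM (vertical axis, linear) in the 3 control (blue) and 3 OGD/R (red) libraries, with replicates as symbols and bars for the mean and SD. Ntrk2 sits between 16.5 and 21.04 FPKM in control and between 10.8 and 11.9 in OGD/R vesicles, whereas the 4 ligands and Ngfr overlap between the groups.

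Ngfr encodes p75, a receptor of the tumour necrosis factor receptor family (ENSMUSG00000000120, chromosome 11, 95568818 to 95587735, minus strand). It had 5.05, 3.29 and 4.08 FPKM in control and 6.37, 5.62 and 3.08 FPKM in OGD/R vesicles. The highest and the lowest value were both in OGD/R libraries, so the groups overlapped. The log2 fold change was 0.20 ± 0.52 (SE; limma, adjusted p = 0.929), on 14 to 47 reads per library. Centred it was 0.60 ± 0.49, and in reads per 1000000 protein-coding reads OGD/R 1 stood apart at 62.6 against 15.8 to 27.6 in the other 5 libraries. Without OGD/R 1 the centred log2 fold change was 0.20.

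As deposited, the ligands had lower means than the Trk receptors in both groups. With reads divided by all annotated exon bases, the OGD/R mean of Gdnf was 7.35 FPKM, above Ntrk2 (5.07) and Ntrk3 (6.19). The ligands varied more between OGD/R libraries than between control libraries, as Ntrk3 and Ngfr also did. The coefficient of variation of Ntrk3 was 5.17% in control and 30.2% in OGD/R vesicles, and that of Ntrk2 13.9% and 5.28%. Bdnf (ENSMUSG00000048482, chromosome 2, 109674700 to 109727007, plus strand), the main activity-regulated neurotrophin of the cortex, had 2.57, 5.64 and 6.43 FPKM in control and 1.31, 10.1 and 2.84 FPKM in OGD/R vesicles. OGD/R 2 had the highest and OGD/R 1 the lowest value of the 6. The means were 4.88 ± 2.04 and 4.74 ± 4.67 FPKM (SD, n = 3 each), and the log2 fold change was -0.28 ± 0.71 (SE; limma, adjusted p = 0.926). It turned to 0.12 ± 0.51 when libraries were centred. Centred, it was -0.15 without control 1 and -0.24 without OGD/R 2, and positive with any other library left out. Bdnf rested on 12, 34 and 41 reads in control and 12, 62 and 16 in OGD/R vesicles.

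Gm45346, annotated antisense to Bdnf, shares 896 exon bases with it. It had 2.88, 11.7 and 8.41 FPKM in control and 1.83, 13.0 and 0.595 in OGD/R vesicles, and was highest in OGD/R 2, as Bdnf was. Where exons of a same-strand gene cover a gene whole, 659 of 679 such genes were listed at 0 in all libraries. Where the covering gene lies on the opposite strand, 67 of 447 were, so the counting treated the strands differently.

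Gdnf, a survival factor for dopaminergic and motor neurons (ENSMUSG00000022144, chromosome 15, 7810846 to 7837575, plus strand), had the highest mean of the ligands, although another ligand was higher in control 2, OGD/R 2 and OGD/R 3. It had 7.56, 7.46 and 9.73 FPKM in control and 7.85, 9.46 and 4.75 FPKM in OGD/R vesicles. OGD/R 1 and 2 lay within the control range and OGD/R 3 below it, and the log2 fold change was -0.18 ± 0.46 (SE; limma, adjusted p = 0.926). It became 0.22 ± 0.39 after centring. Centred, it was -0.08 without OGD/R 1, and positive with any other library left out. Its reads were not whole with the annotated length of 3674 bases, but at 3509 bases they were 29, 37 and 51 in control and 59, 48 and 22 in OGD/R vesicles.

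Ntf5, which encodes NT-4/5, a further ligand of TrkB (ENSMUSG00000074121, chromosome 7, 45413695 to 45417179, plus strand), had 5.13, 7.57 and 7.16 FPKM in control and 5.95, 10.9 and 3.47 FPKM in OGD/R vesicles. OGD/R 1 lay within the control range, OGD/R 2 above it and OGD/R 3 below it. The log2 fold change was -0.07 ± 0.53 (SE; limma, adjusted p = 0.978), and 0.33 ± 0.41 after centring, on 9 to 31 reads per library.

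Ntf3, which encodes NT-3, the ligand of TrkC (ENSMUSG00000049107, chromosome 6, 126101412 to 126166910, minus strand), was the scarcest member. It had 0.617, 2.39 and 2.26 FPKM in control and 0.63, 1.87 and 6.13 FPKM in OGD/R vesicles, on 1, 5 and 5 and on 2, 4 and 12 reads. OGD/R 3 was the highest library, with an exact 95% Poisson interval of 3.17 to 10.7 FPKM, and control 1, with 1 read, had one of 0.0156 to 3.44 FPKM. These intervals cover counting error only. The log2 fold change of 0.30 ± 0.78 (SE; limma, adjusted p = 0.928) was -0.27 without OGD/R 3 and -0.05 without control 1. Centred, it was 0.71 ± 0.70 (SE), 0.10 without OGD/R 3 and 0.41 without control 1, so the direction turned only on the uncentred values.

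Summed by role, the 3 receptors had 35.1, 38.6 and 33.6 FPKM in control and 23.8, 29.9 and 23.3 FPKM in OGD/R vesicles. The 4 ligands had 15.9, 23.1 and 25.6 FPKM and 15.7, 32.3 and 17.2 FPKM. As deposited, the receptor sums did not overlap between groups and the ligand sums did. Divided by each library's protein-coding median, the receptor sums were 5.23, 5.33 and 4.09 in control and 6.76, 3.63 and 4.62 in OGD/R vesicles and overlapped. Scaled in this way, a division added after seeing the data, the ligand sums were 2.36, 3.18 and 3.11 in control and 4.46, 3.93 and 3.40 in OGD/R vesicles. They then lay apart, which the centred values of none of the 4 ligands did. How often sums of other genes lie apart, as deposited or scaled in this way, was not tested. The ratio of ligand to receptor sum, which does not change with the scaling of a library, was 0.452, 0.597 and 0.761 in control and 0.66, 1.08 and 0.737 in OGD/R vesicles, so it overlapped. Ntrk2 made up 57.2% ± 2.04 of the 2 Trk receptors in control and 54.8% ± 6.47 in OGD/R vesicles (SD, n = 3 each).

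**Figure D2:**
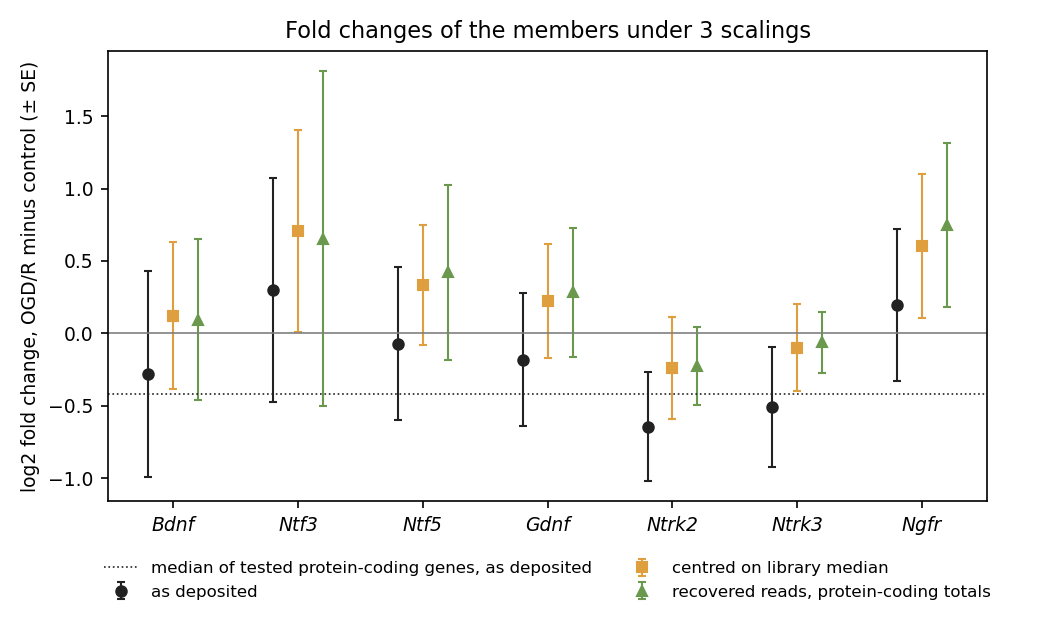
Log2 fold change of each member, OGD/R minus control, with its SE, on the values as deposited, on centred values and on recovered reads with protein-coding totals. As deposited, Ntrk2 lies at -0.64 and the dotted median of protein-coding genes at -0.42; after centring 5 of 7 members lie above 0, and only Ntrk2 and Ntrk3 stay below it.

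By mean log2(FPKM + 1) the order of levels was Ntrk2, Ntrk3, Gdnf, Ntf5, Ngfr, Bdnf and Ntf3. With 6 libraries a single pair of neighbours could not pass: the smallest p of the exact paired permutation test (all sign changes, two-sided) is 0.03125, which becomes 0.1875 when 1 pair of 6 reaches it. The adjusted p of this exact permutation test ran from 0.141 to 0.781, and the order was taken from the same values, so it stands as a description. Ntrk2 was above Ntrk3 in 5 of 6 libraries, by 0.32 ± 0.24 log2 units (SD), with a permutation p of 0.0625. Ngfr and Bdnf were the closest pair, at 0.10 ± 0.96 log2 units, each higher in 3 of 6 libraries.

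The high place of the Trk receptors depended on the length by which reads are divided. The deposited FPKM use the longest transcript, 8744 bases for Ntrk2, while all annotated exons of Ntrk2 cover 19292 bases over 10 transcripts. The ratio of 2.21 exceeds that of 96.7% of protein-coding genes, whose median is 1.12. Ntrk3, with 20 transcripts, has a ratio of 1.53 and Bdnf, with 11, one of 1.46. Divided by all exon bases, a choice made after seeing the data, Ntrk2 had a median of 6.44 FPKM over the 6 libraries instead of 14.2, and the order became Gdnf, Ntrk3, Ntrk2, Ntf5, Ngfr, Bdnf and Ntf3. Ntrk2 was then 0.15 log2 units below Ntrk3, and Ntrk3 0.06 below Gdnf. Fold changes between groups do not depend on length apart from the pseudocount.

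**Figure D3:**
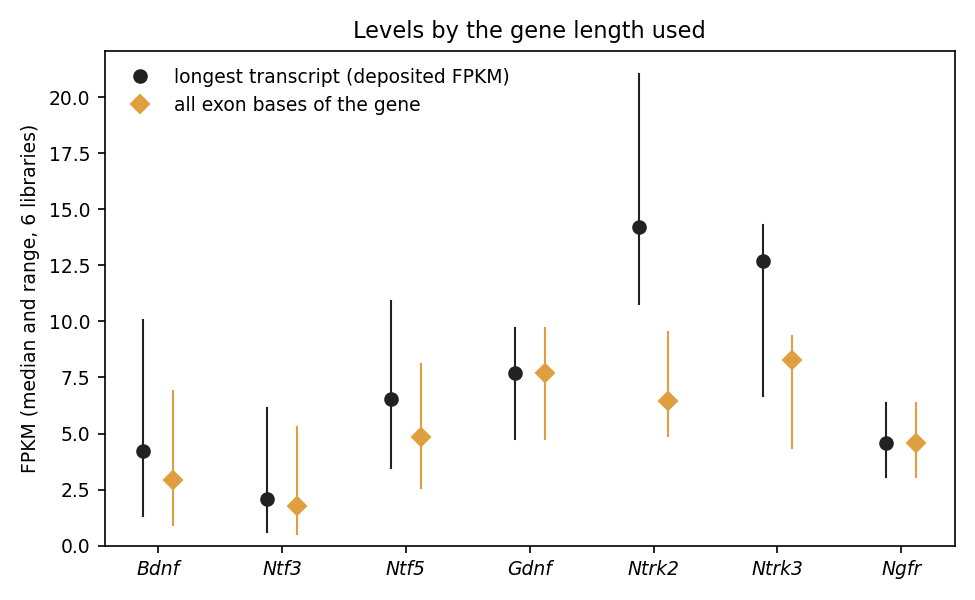
Median (point) and range (line) of FPKM over the 6 libraries for each member, with reads divided by the longest transcript or by all exon bases. The median of Ntrk2 goes from 14.2 to 6.44 and that of Ngfr, a gene of 1 transcript, stays at 4.56.

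Within each library, Ntrk2 stood between the 68.2 and 90.1 percentile of protein-coding genes and Ntrk3 between the 70.2 and 79.4 percentile. Gdnf had a median percentile of 55.9, Ntf5 of 47.7, Bdnf of 35.1, Ngfr of 33.6 and Ntf3 of 14.7. By all exon bases the median percentile was 69.2 for Ntrk3, 68.3 for Gdnf and 62.9 for Ntrk2. It was 44.0 for Ntf5, 40.5 for Ngfr, 29.0 for Bdnf and 14.2 for Ntf3. By this length Ntrk2 was at the 39.6 percentile in OGD/R 2. By deposited FPKM, Ngfr reached the 73.2 percentile in OGD/R 1 and lay at 22.4 to 39.9 in the others.

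**Figure D4:**
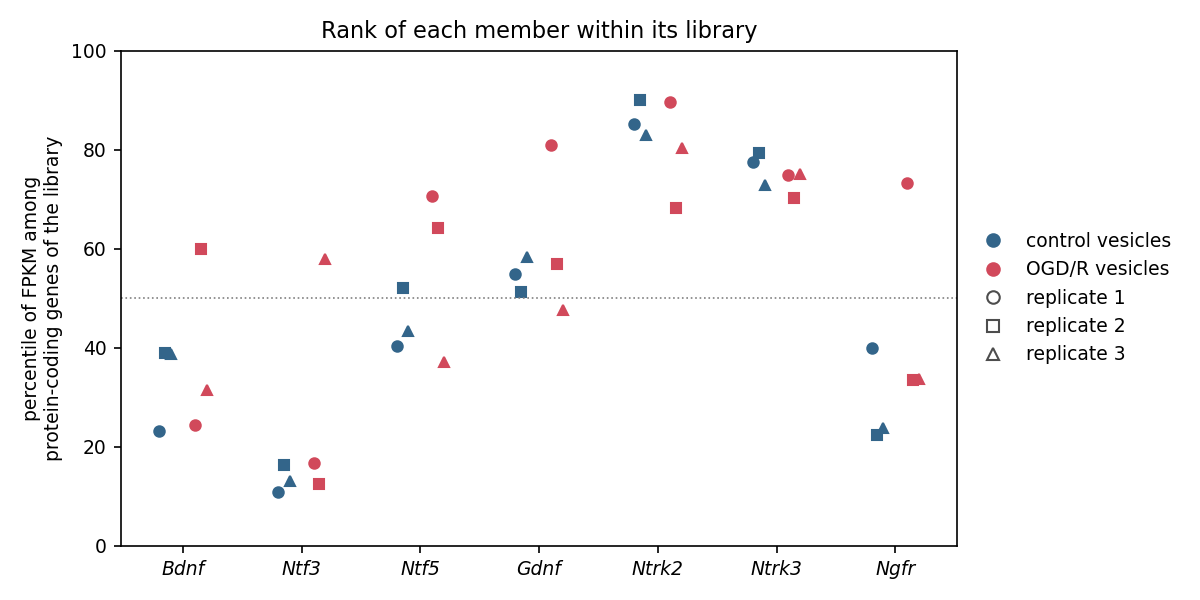
Percentile of each member's FPKM among the protein-coding genes of the same library (vertical axis), by library, with a dotted line at 50. Ntrk2 and Ntrk3 lie above 50 in all libraries, Ntf3 lies under 20 in all but OGD/R 3, and Ngfr is high in OGD/R 1 alone.

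The libraries gave little contrast between genes of neurons and of other tissues. For 14 pan-neuronal markers the median was 9.37 ± 1.29 FPKM in control and 8.44 ± 2.25 in OGD/R vesicles, and 42 genes of liver, muscle, pancreas, skin, gut and testis had 8.67 ± 1.54 and 6.11 ± 2.26 (SD, n = 3 each). Excitatory cortical neuron markers had 6.96 FPKM in control and 5.43 in OGD/R vesicles, below these 42 genes in both groups. GABA neuron markers had 5.24 and 5.06 FPKM, and oligodendrocyte markers 5.84 and 4.67. Microglia and macrophage markers had 9.1 and 5.47 FPKM, endothelial, mural and fibroblast markers 8.56 and 7.26, and erythroid and blood markers 9.37 and 5.08. Astrocyte and radial glia markers, a cell type that makes Ntrk2, had 6.99 ± 1.82 and 6.89 ± 2.15 FPKM. All 10 were above 0 in all libraries, as were 34 of the 42 genes of other tissues. The astrocyte and radial glia markers had summed levels of 101.4 to 105 FPKM in control and 60.4 to 112 in OGD/R vesicles. Schwann and neural crest markers, of cells that make Ngfr, had 3.26 ± 2.09 and 2.62 ± 0.643 FPKM, summed levels of 24.5 to 40.8 and 18.4 to 33.5 FPKM, with Sox10 at 0 in control 1 and Foxd3 at 0 in control 1 and OGD/R 3. The part of other cell types in the members' values was not tested. The members themselves had a median of 6.58 ± 1.27 FPKM in control and 7.06 ± 2.72 in OGD/R vesicles. In such bulk material, fewer vesicles with an RNA and less of it per vesicle cannot be told apart.

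Around the members, 132 genes of 8 pathway lists were examined, of which 130 were tested and 0 passed in limma (smallest adjusted p = 0.7199). Of these 23 were higher and 107 lower in OGD/R vesicles (82.3% lower, against 80.5% of tested protein-coding genes), with a median log2 fold change of -0.36. After centring 72 were higher and 58 lower, and the median was 0.05. Groups were apart towards lower values in 14 of the 130 (10.8%, against 10.8% of all and 12.9% of protein-coding genes tested) and towards higher values in 0 (against 1.1% and 0.806%). Rtn4r, the Nogo receptor, and Cntf, ciliary neurotrophic factor, were too low to be tested.

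Of 11 GDNF family genes, 3 were higher and 8 lower, or 6 and 5 after centring. Pspn, encoding the ligand persephin, had 0, 1.49 and 2.82 FPKM in control and 6.90, 1.46 and 3.19 FPKM in OGD/R vesicles (log2 fold change 1.03 ± 0.79 SE; limma, adjusted p = 0.795). Gdf15, a stress-induced factor that acts through Gfral, had 12.4, 2.29 and 3.46 FPKM and 0.604, 5.82 and 0 FPKM (-1.39 ± 0.91 SE; limma, adjusted p = 0.764). Both pairs of groups overlapped, and the centred log2 fold changes were 1.44 for Pspn and -0.99 for Gdf15. Ret, the signalling receptor of Gdnf, had 8.56 ± 3.14 and 5.44 ± 2.68 FPKM, and its co-receptor Gfra1 8.42 ± 0.824 and 6.87 ± 2.44 (SD, n = 3 each); both are named outside the rule, as the receptor pair of Gdnf.

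Of 9 tested genes of other neurotrophin ligands, receptors and co-receptors, 1 was higher and 8 were lower, or 4 and 5 after centring. Lingo1, a partner of p75 in the Nogo receptor complex, had 7.06, 11.1 and 12.2 FPKM in control and 3.09, 5.53 and 4.38 FPKM in OGD/R vesicles (log2 fold change -1.05 ± 0.48 SE; limma, adjusted p = 0.7199), with groups apart. Sort1, sortilin, which binds proneurotrophins together with p75, had 14.7, 39.95 and 28.5 FPKM and 6.83, 21.6 and 8.75 FPKM (-1.15 ± 0.55 SE; limma, adjusted p = 0.7199), with groups that overlapped. Centred, Lingo1 was at -0.65 and Sort1 at -0.75.

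Of 13 processing enzymes, 3 were higher and 10 lower, but 8 were higher and 5 lower after centring. As deposited, 4 had groups apart towards lower values (30.8%, against 12.9% of protein-coding genes). Plat, tissue plasminogen activator, which starts the protease cascade that cuts proBDNF outside cells, had 20.8, 42.4 and 27.0 FPKM in control and 11.3, 18.8 and 11.8 FPKM in OGD/R vesicles (log2 fold change -1.03 ± 0.43 SE; limma, adjusted p = 0.7199). Plg, plasminogen, its substrate, had 11.3, 9.76 and 10.2 FPKM and 3.56, 8.79 and 6.59 FPKM (-0.71 ± 0.47 SE; limma, adjusted p = 0.768). Both lay lower in all OGD/R libraries as deposited, and neither passed. Centred, the log2 fold changes were -0.62 for Plat and -0.30 for Plg.

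Of 34 genes of Trk signalling 4 were higher and 30 lower, or 14 and 20 after centring. As deposited, 6 had groups apart towards lower values (17.6%, against 12.9% of protein-coding genes) and 0 towards higher values (against 0.806%). Shc3, a neuronal adaptor that binds activated Trk receptors, had 30.4, 36.5 and 31.3 FPKM in control and 7.23, 23.2 and 19.9 FPKM in OGD/R vesicles (log2 fold change -1.06 ± 0.49 SE; limma, adjusted p = 0.7199). The Shc3 groups were apart, it did not pass, and its centred log2 fold change was -0.66. The list median of -0.52 was the lowest of the 8.

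Of 19 genes of p75 signalling 3 were higher and 16 lower, but 11 were higher and 8 lower after centring. Prdm4, a transcription factor that binds p75, had 11.8, 29.6 and 18.6 FPKM in control and 2.83, 9.95 and 7.83 FPKM in OGD/R vesicles (log2 fold change -1.46 ± 0.56 SE; limma, adjusted p = 0.7199), with groups apart. Bex1, a p75-interacting adaptor, had 19.0, 8.99 and 20.9 FPKM and 3.24, 4.79 and 10.5 FPKM (-1.32 ± 0.55 SE; limma, adjusted p = 0.7199), with groups that overlapped. Centred, Prdm4 was at -1.05 and Bex1 at -0.91.

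Of 15 regulators of Bdnf transcription 2 were higher and 13 lower, but 10 were higher and 5 lower after centring. Npas4, an activity-induced factor that drives Bdnf, had 15.4, 7.34 and 22.5 FPKM in control and 5.70, 9.71 and 7.39 FPKM in OGD/R vesicles (log2 fold change -0.80 ± 0.51 SE; limma, adjusted p = 0.757). Creb1 had 8.95 ± 1.59 and 5.56 ± 3.49 FPKM (SD, n = 3 each; limma, adjusted p = 0.791). Groups overlapped for both, and the centred log2 fold changes were -0.40 for Npas4 and -0.32 for Creb1.

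Of 16 genes known to be induced by BDNF 3 were higher and 13 lower, but 10 were higher and 6 lower after centring. Npy, a neuropeptide of interneurons, had 4.85, 28.8 and 22.5 FPKM in control and 1.65, 15.9 and 1.34 FPKM in OGD/R vesicles (log2 fold change -1.76 ± 0.91 SE; limma, adjusted p = 0.728). Sst, somatostatin, had 4.58, 14.2 and 16.8 FPKM and 2.34, 0 and 15.2 FPKM (-1.60 ± 0.99 SE; limma, adjusted p = 0.754). Both were low in control 1 as well, and their groups overlapped. Centred, Npy was at -1.36 and Sst at -1.20.

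Of 15 tested genes of other trophic factors and receptors 4 were higher and 11 lower, but 10 were higher and 5 lower after centring. Cntfr, the receptor of ciliary neurotrophic factor, had 13.1 ± 4.54 FPKM in control and 6.83 ± 4.45 in OGD/R vesicles (limma, adjusted p = 0.746), and Clcf1, a ligand of that receptor, 6.09 ± 2.36 and 3.004 ± 2.73 (limma, adjusted p = 0.776; SD, n = 3 each). Groups overlapped for both, and the centred log2 fold changes were -0.56 for Cntfr and -0.64 for Clcf1.

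**Figure D5:**
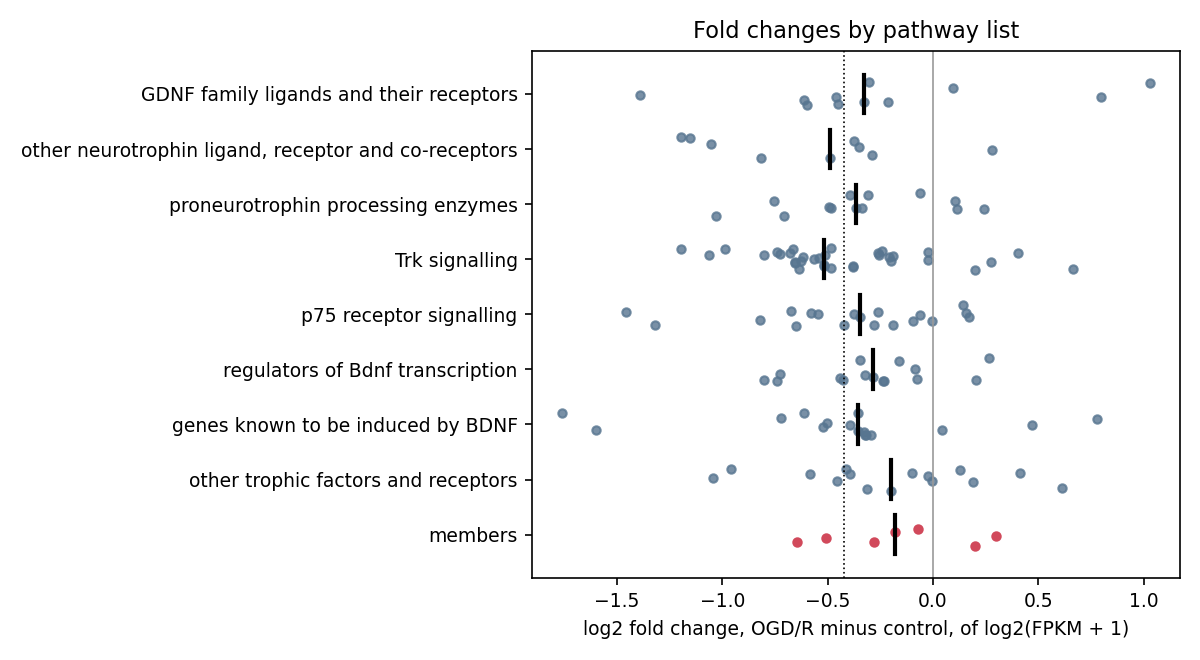
Log2 fold change of each tested gene (points, OGD/R minus control, on the log2(FPKM + 1) scale) by pathway list, with the list median as a bar and the median of protein-coding genes, -0.42, as a dotted line. List medians lie between -0.52 and -0.20, on both sides of the dotted line, and the members' median lies at -0.18.

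Of 9 transcripts that overlap the members' genes, 4 were higher and 5 lower in OGD/R vesicles, with log2 fold changes from -1.56 to 1.25. The lowest, Gm44607, an unverified transcript in an intron of Ntrk3 on the same strand (chromosome 7, 78211610 to 78212699), is named after its values were seen. It had 50.4, 96.1 and 36.2 FPKM in control and 9.85, 18.4 and 33.3 FPKM in OGD/R vesicles (log2 fold change -1.56 ± 0.55 SE; limma, adjusted p = 0.712). The groups were apart by a narrow gap, as in 10.8% of all tested genes towards lower values, and it did not pass. It shares 0 exon bases with Ntrk3.

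The genes most like each member over the 6 libraries were found by Pearson's r of centred values among 18979 protein-coding genes. With only 6 points, 23 to 54 genes per member had r over 0.95. For Ntrk2 they were Spi1 (r = 0.996) and Tra2b (0.988), and for Ntrk3 Scaper (0.994) and Chrna1 (0.993). Bdnf was closest to Actr1a (0.99) and Dnajb3 (0.989), Ntf3 to Krt13 (0.995) and AW549877 (0.992), and Ntf5 to Muc15 (0.995) and Taok2 (0.994). Gdnf was closest to Wrnip1 (0.993) and Timm17b (0.99), and Ngfr to Csnk2b (0.992) and Try5 (0.991). Among the members, Gdnf and Ngfr had an r of 0.889, both being highest in OGD/R 1 after centring, and Ntrk2 and Ntrk3 one of 0.849. Bdnf had negative r with both Trk receptors, -0.703 with Ntrk2 and -0.69 with Ntrk3. These are descriptions over libraries that share a scaling, with no test.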

How the data were processed

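The authors deposited 1 table per library with FPKM per Ensembl gene; the file names mention HTSeq. Extraction used Trizol and library preparation an Epibiotek long RNA kit, per the labels' protocols. Aligner, build and annotation are not given in the sources used here. Of 53379 genes 53274 matched GENCODE M21 (GRCm38), and with its longest transcripts 96.0% of values above 0 were whole reads within 0.01 reads.

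The 44125 genes averaging 1 FPKM or more were tested on log2(FPKM + 1) with limma 3.58.1 (R 4.3.3; eBayes with trend, two-sided, no covariates), threshold adjusted p 0.05. As alternatives, other pseudocounts, filters and scalings, array weights, a replicate block, limma-voom on recovered reads and leaving out each library were run. The limma and limma-voom fits were tested on simulated reads, drawn with gene shares common to all libraries apart from changes set by group. Shares that differ between libraries of the same group, as those of Gm23935 did, were not simulated. The simulation therefore does not show how the fits behave with such libraries. Near-identical copies (over 90% alike over 80% of the length, blastn 2.17.0) were found for 0 of 7 members. Overlaps used bedtools 2.31.1; tables, exact tests and plots were made in Python 3.11.15 (scipy 1.17.1, numpy 2.4.6, pandas 2.3.3, matplotlib 3.10.9).

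Members, pathway lists and markers were chosen with earlier results of these data known. The rule for named genes takes all 7 members, the 2 tested genes of smallest p in each pathway list, any that pass, and the 2 most alike genes per member. A few genes of the pathway lists, 1 of them named by this rule, are not reported here.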

Additional observations from a re-analysis of the deposited data

How the results depend on the processing

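Over all genes the count past the threshold was 7, and 0 with a pseudocount of 0.1, with no filter, centred on library medians, without a variance trend or with the replicate block. It was 75 with array weights, 57 with limma-voom on recovered reads, and from 0 to 71 when each library was omitted in turn, the highest coming from omitting OGD/R 2. The count was 0 for members under all alternatives run, and for pathway genes under all but those that combine centring with a left-out library, where it was not taken. Directions held for Ntrk2 and Ntrk3 under all of them (leave-one-out -0.70 to -0.54 and -0.70 to -0.30; centred as well, an added alternative, -0.45 to -0.01 and -0.19 to -0.03). The unadjusted limma p of Ntrk2, 0.121 in the main fit, was 0.0071 with no filter (adjusted p = 0.57) and 0.517 when centred. Bdnf, Ntf5 and Gdnf turned to 0.12, 0.33 and 0.22 when centred, to 0.22, 0.37 and 0.24 with quantile normalization and to 0.10, 0.42 and 0.28 with limma-voom. Array weights moved them the other way, to -0.68, -0.55 and -0.52. With 1 library left out they ranged from -0.91 to 0.22, -0.44 to 0.27 and -0.37 to 0.066. Centred as well, they ranged from -0.24 to 0.38, 0.12 to 0.65 and -0.08 to 0.44. Of these centred values, Bdnf was -0.15 without control 1 and -0.24 without OGD/R 2. It was 0.26 without control 2 and without control 3, 0.38 without OGD/R 1 and 0.23 without OGD/R 3. Gdnf was -0.08 without OGD/R 1, and 0.22, 0.17 and 0.27 without control 1, 2 and 3. It was 0.31 without OGD/R 2 and 0.44 without OGD/R 3. Ntf3 ranged from -0.27 to 0.79 with 1 library left out and from 0.10 to 1.06 when centred as well, and was 0.90 with quantile normalization; Ngfr was -0.035 with array weights. The cause was not tested. With reads divided by all exon bases, added after seeing the data, Ntrk2 minus Ntrk3 was -0.15 and Ntrk3 minus Gdnf -0.057 log2 units. The replicate block left the members' fold changes as they were and changed no call among them; replicate numbers were not taken as pairs, since same-numbered libraries deviated together with r of 0.0446, 0.102 and -0.0582, and not every library correlated best with its own number. Depth limits Ntf3 most, at 1 to 12 reads per library. Bdnf and Ntf3 entered no test with a mean of at least 5 FPKM, nor did Ngfr.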
